A study of Mus musculus with 4 samples.

Results

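Expression of 10 genes known as markers of an injured kidney tubule was followed across the tubule segments of aged mouse kidneys: Havcr1, Lcn2, Krt20, Krt8, Krt18, Spp1, Clu, Sox9, Cd44 and Wfdc2. The members were taken by gene symbol, and all 10 were found among the 31054 features of the deposited count tables. The kidneys came from male C57BL/6 mice aged 19 months that had received either BPTES, a small-molecule inhibitor of the glutaminase GLS1, or the vehicle DMSO for 1 month. Single cells were profiled with a 10x Genomics GEM-X 3' kit, in 2 libraries per group. The tissue was digested with liberase, and each library pools 20000 sorted CD45-negative cells with 9000 CD45-positive cells, so shares of cell types within a library are partly set by the sort. All mice of both groups were aged, and no young or untreated group was analysed here. The labels number the samples within each group without saying whether the numbers stand for separate animals, so p-values measure the spread between these libraries.

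Tubule cells that are damaged lose part of their transport program and switch on a set of repair and stress genes, and a fraction of them can keep this state long after the insult. In the proximal tubule the switch is known from Havcr1 (KIM-1, a phosphatidylserine receptor for dead cells) and from Sox9, a transcription factor of regenerating epithelium. Keratins 8, 18 and 20 form intermediate filaments. Spp1 (osteopontin), Clu (clusterin, an extracellular chaperone), Wfdc2 (HE4, a secreted protease-inhibitor-like protein) and Lcn2 (NGAL, an iron-siderophore carrier) are secreted, and several of them are normal products of the distal nephron. Cd44 is a receptor for hyaluronan and osteopontin that leukocytes also carry at high levels.

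The 4 libraries held 17907 to 20091 barcodes and 249881074 to 297947661 UMIs, and 46738 cells passed all filters, of which 24875 were tubule cells. Proximal tubule cells numbered 5715, 5383, 5603 and 4909, with a median mitochondrial share of 15.8%, 21.3%, 11.8% and 14.9% in BPTES 1, BPTES 2, DMSO 1 and DMSO 2. Levels are given as CPM, UMIs of the gene per 1000000 UMIs of all genes in that segment and library, in the order BPTES 1, BPTES 2, DMSO 1, DMSO 2. Segments were named from marker genes, with the 10 injury genes left out of the clustering, and each name stands for a cell that is like that type. The 9 proximal tubule markers, among them Lrp2, Slc34a1 and Hnf4a, were detected in every library and summed to between 11703 and 13460 CPM in proximal tubule cells, against 96.6 to 152 in the thin limb. They summed to 950, 733, 672 and 399 in the thick ascending limb and 529, 347, 292 and 205 in the distal convoluted or connecting tubule. In intercalated cells they summed to 631, 419, 186 and 68.6. Their part in the distal results was not tested. The class named thin limb was less clean: it carried urothelial genes at 1170, 2271, 3578 and 664 summed CPM in BPTES 1, BPTES 2, DMSO 1 and DMSO 2. Median depth per proximal tubule cell was 17792, 14976, 17497 and 18297 UMIs, whereas distal convoluted or connecting tubule cells of DMSO 2 were deeper than those of the other libraries (2270, 1906, 2124 and 6808 UMIs), as were its thick ascending limb cells (3935, 3689, 3156 and 8668 UMIs). The part of this depth gap in the distal results was not tested beyond fits on single clusters.

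Across all proximal tubule cells, 9 of the 10 genes were lower in both BPTES libraries than in both DMSO libraries, the exception being Cd44, and this pattern held for 29% of the 16284 genes tested. The class mixes segments unequally, with 3215, 3447, 2426 and 2172 cells of S1-S2 and 1225, 824, 1556 and 1456 of S3, between which levels differ, and the part of this shift in the pooled values was not tested beyond the fits within segments. The median fitted log2 fold change of the 10 genes, BPTES over DMSO, was -1.76, against -0.02 over all genes. By edgeR's quasi-likelihood test none of the 10 passed an adjusted p of 0.05, and no other gene did either (0 of 16284, 0%). At an unadjusted p under 0.05, 6 of the 10 genes and 3006 of all genes stood out, and DESeq2 called 5 of the 10 and 970 genes in all. The 2 DMSO libraries differed from each other, DMSO 2 being the higher in all 10 genes. With single libraries left out, the log2 fold change of Sox9 ran from -4.92 to -2.52 and that of Krt18 from -2.36 to -0.33. Both the members and the number of all genes called changed with the library left out. In the 2 named proximal tubule segments, Spp1, Clu and Lcn2 were called lower in S1-S2, against 0.814% of all genes, and 2 of 8 members in S3, against 0.943%. These segments hold 11260 and 5061 of the 21610 cells. The rest lie in unnamed sub-clusters, among them that led by Cp, Kcnip4 and Vcam1 (10, 7, 40 and 108 cells). Of 49, 15, 793 and 1633 Havcr1 UMIs, 21, 7, 141 and 26 lay in S1-S2 and 28, 8, 397 and 75 in S3. Sox9 passed the threshold in S1-S2 too, but reached the low-count limit for testing, 10 UMIs at the median library size, in the 2 DMSO libraries alone, and a gene tested on that basis had to differ, so its call is a description outside the count. None of these segment calls remained when predicted doublets were kept, and at Leiden resolution 2 only Sox9 was called in S1-S2. Both alternatives cluster and name the cells anew. With doublets kept, a sub-cluster led by Cp, Kcnip4, Erbb4 and Vcam1 (19, 16, 83 and 151 cells) counted as S3. The sub-cluster led by Fgg and C3 (30, 33, 214 and 183 cells) then lay in neither segment. The parts of added cells and of changed segments in these losses were not tested. The S1-S2 class holds a sub-cluster led by Fgg, Fga, Fgb, C4b, Cfi and C3, whose 194 cells are spread unevenly (9, 9, 83 and 93). Without it, a fit added after the data had been seen called Lcn2, against 0.635% of all genes, and no longer Spp1 or Clu. Sox9 and Havcr1 passed the threshold there as well, but reached the low-count limit in no BPTES library.

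**Figure D1:**
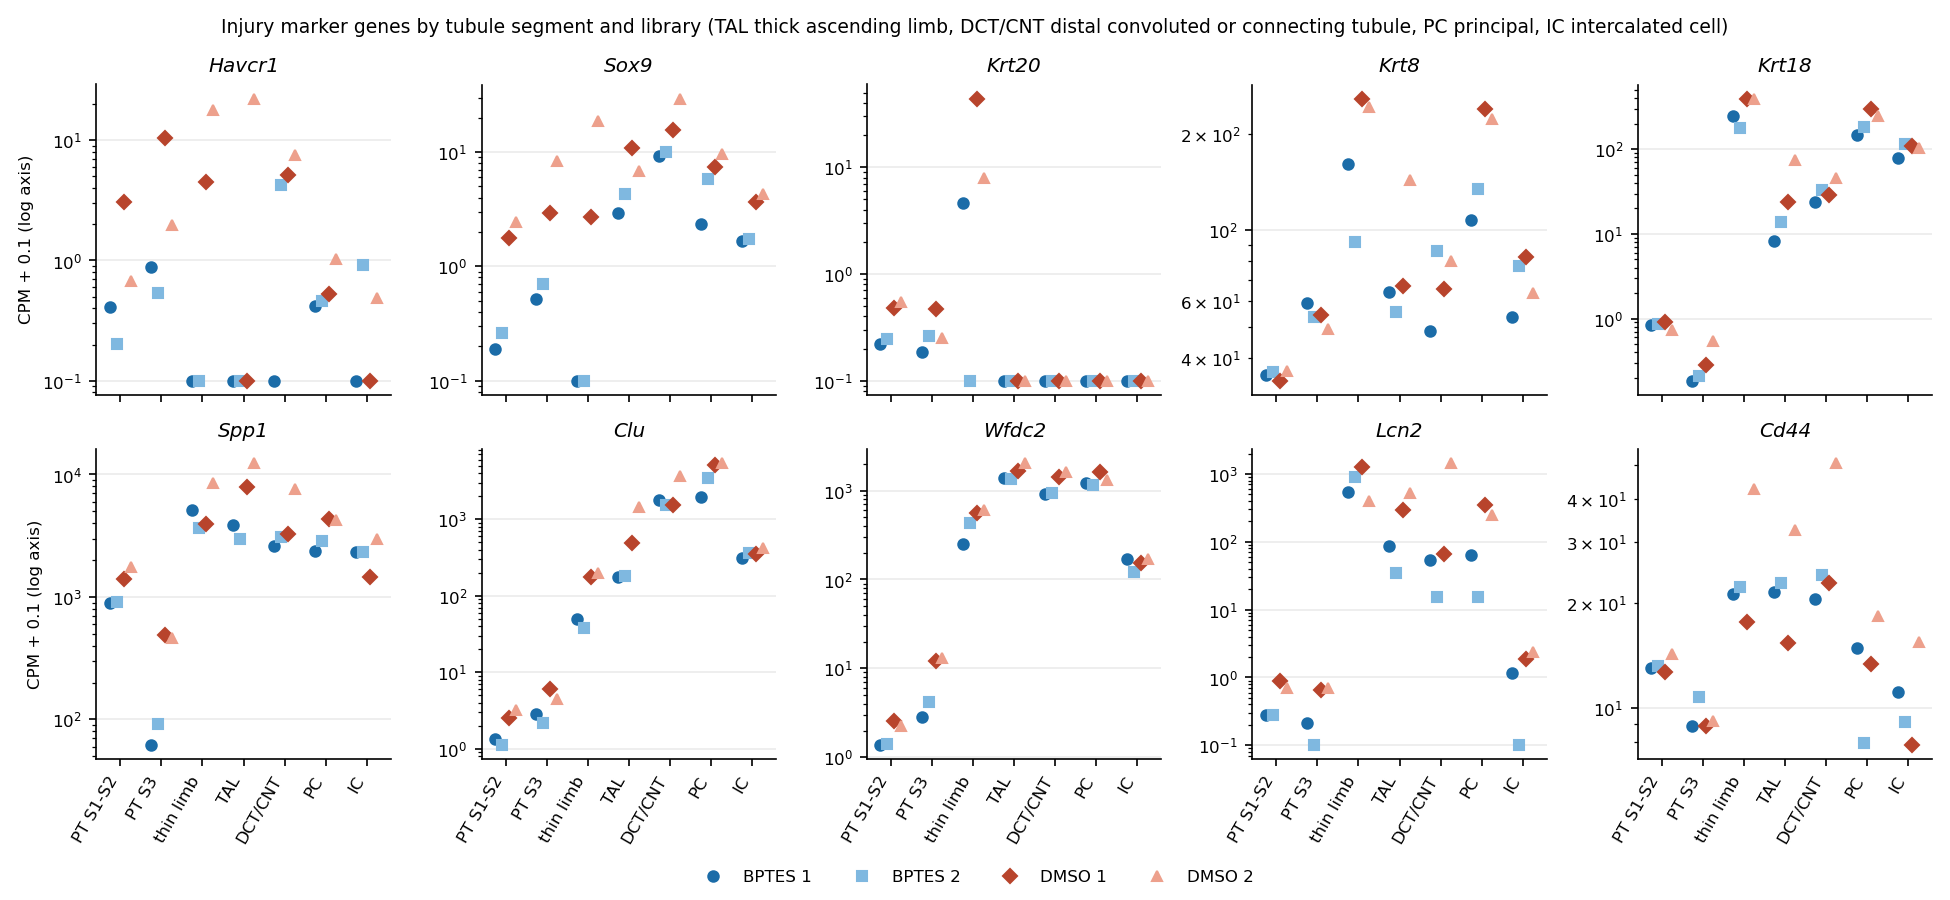
Level of each gene in CPM plus 0.1 (log axis) by tubule segment, with 1 point per library (blue BPTES, red DMSO). The proximal tubule points of Havcr1 and Sox9 separate the groups, whereas Krt8 and Cd44 show 4 points close together there.

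Havcr1 (chromosome 11, 46735080 to 46779578, GRCm38) was close to background in proximal tubule cells under BPTES and was found in a small share of cells under DMSO. Its level was 0.396, 0.15, 6.97 and 15 CPM, from 49, 15, 793 and 1633 UMIs. At least 1 UMI was found in 0.297% (95% exact binomial interval 0.173 to 0.476) and 0.186% (0.0891 to 0.341) of BPTES cells. In DMSO the shares were 2.28% (1.91 to 2.71) and 2.38% (1.98 to 2.85). These intervals cover counting error only. Endothelial cells, which should lack the gene, held a UMI in 0, 0, 3 and 4 cells. That is 0% under BPTES, with exact upper bounds of 0.349% and 0.588%, against 0.325% and 0.327% under DMSO, at a median depth of 10761 to 12793 UMIs. The BPTES shares thus lay within the counting error of this background, and the DMSO shares lay above it. The fitted log2 fold change was -5.20 (SE 0.62, edgeR adjusted p = 0.124), and the 2 groups did not overlap.

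The Havcr1 transcripts lay in few cells. Cells with at least 10 Havcr1 UMIs, called strongly positive here, numbered 1, 0, 18 and 26, and the highest cell of each library held 19, 4, 120 and 304 UMIs. These cells made up 85.2% of the difference between the group means, 10.7 CPM. Cells below 10 UMIs differed as well, with 0.242, 0.15, 1.91 and 1.65 CPM, 9.07-fold higher on average in DMSO. An exact two-sided permutation test over the 4 libraries cannot give a p below 0.33, which was the value for the strongly positive part, the rest and the sum. So the Havcr1 difference had a large part in rare, strongly positive cells and a smaller part of the same direction in cells with few UMIs.

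Sox9 (chromosome 11, 112782224 to 112787760) followed the same direction with a more uneven DMSO group. Proximal tubule levels were 0.234, 0.59, 2.55 and 12.1 CPM, and positive cells made up 0.262%, 0.204%, 1.71% and 5.11%. DMSO 2 stood above DMSO 1, and both stood above the BPTES libraries. Strongly positive cells numbered 1, 1, 5 and 38, and they made up 54.2% of the difference, or 16.9% without DMSO 2. The remaining cells still differed, at 0.153, 0.25, 1.98 and 4.77 CPM. T cells held 0 to 0.0949 Sox9 CPM and endothelial cells 0.873, 0.584, 2.44 and 0.556. Against the endothelial range, DMSO 2 lay well above, DMSO 1 barely above its top, and the BPTES values within it or below it. Fibroblasts held more, at 10.9, 14.8, 32.2 and 7.42 CPM. The fitted log2 fold change was -4.08 (SE 1.01, edgeR adjusted p = 0.191) over the whole proximal tubule. In S1-S2 cells, where levels were 0.0892, 0.161, 1.67 and 2.34, Sox9 passed the test with a log2 fold change of -3.92 (SE 0.38, edgeR adjusted p = 0.0036). These levels rest on 6, 11, 80 and 105 UMIs, and the BPTES libraries lay under the low-count limit. The lowest of the levels is at the T cell background. Against the endothelial range, both DMSO levels of S1-S2 lay within it and both BPTES levels below it. The DMSO 1 level, 1.67, lay below the endothelial value of its own library, 2.44. The Sox9 log2 fold change in S1-S2 ran from -4.42 to -3.53 without single libraries. It was -4.36 without the Fgg sub-cluster, and -3.44 with predicted doublets kept, where it missed the threshold (edgeR adjusted p = 0.0956). These fits rest on the same low BPTES counts and add no support to the call.

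Of the keratins, Krt20 was rare in the proximal tubule, and Krt8 was common. Krt20 (chromosome 11, 99428403 to 99438150) reached 0.153, 0.28, 0.509 and 1.8 CPM in proximal tubule cells, with 4 strongly positive cells, all in DMSO 2. In the T cells, and in every distal segment beyond the thin limb, no Krt20 UMI was counted in any library, and the 0 counts of the T cells allow up to 0.308 CPM. Krt18 (chromosome 15, 102028180 to 102032027) reached 0.614, 0.7, 0.896 and 3.56 CPM in the proximal tubule, and T cells held 0.718, 0.19, 1.1 and 0.703. Only DMSO 2 lay above the range of the T cells. Strongly positive Krt18 cells numbered 0, 0, 1 and 10.

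Krt8 (chromosome 15, 101996698 to 102004482) was carried by 45.8%, 41.7%, 46.7% and 45.8% of proximal tubule cells, with levels of 48.4, 42.6, 52.4 and 59.4 CPM. The log2 fold change was -0.20 (SE 0.10, edgeR adjusted p = 0.331). Cells below 10 UMIs held 44.9, 41.9, 48.4 and 42.3 CPM, and here the groups overlapped. Strongly positive cells, which numbered 29, 5, 30 and 70, held 81.4% of the small difference, and 25.4% without the Dcdc2a cluster described further on. In S1-S2 the 4 Krt8 levels lay between 33.8 and 36.4. In S3 the log2 fold change was 0.24 (SE 0.09, edgeR adjusted p = 0.245), the opposite sign. It turned to -0.12 with predicted doublets kept and the segments named anew.

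Spp1 (chromosome 5, 104435118 to 104441050) differed from the rare markers, since most proximal tubule cells held it. At least 1 UMI was counted in 72.8%, 76.4%, 76% and 83.4% of cells, and levels were 547, 696, 915 and 1418 CPM. In the whole proximal tubule the log2 fold change was -0.81 (SE 0.26, edgeR adjusted p = 0.220). The median cell did not separate the groups, at 2.97, 4.33, 2.77 and 4.67 Spp1 UMIs per 10000, whereas the cell at the 99th percentile did, at 36, 40, 95.5 and 123. Cells with at least 10 UMIs are not a rare class for this gene: they numbered 2104, 2146, 1997 and 2205, and the difference between groups lay within them.

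In the S1-S2 segment, Spp1 was lower under BPTES, with levels of 901, 905, 1397 and 1748 CPM and a log2 fold change of -0.75 (SE 0.14, edgeR adjusted p = 0.0447). Here the whole distribution was higher in DMSO 2, and mainly its upper part in DMSO 1. The median cell held 7.05, 7.31, 8.1 and 12.4 UMIs per 10000, the cell at the 90th percentile 20.8, 21.2, 28.4 and 38.4, and the cell at the 99th percentile 41.2, 42.4, 113 and 125. Without DMSO 2 the log2 fold change was -0.54 and the adjusted p 0.071, with predicted doublets kept they were -0.51 and 0.221, and without the Fgg sub-cluster -0.58 and 0.121. In S3, where Spp1 is scarcer, levels were 61.3, 91.5, 493 and 464, and Spp1 was lower under BPTES by a log2 fold change of -2.53 (SE 0.25, edgeR adjusted p = 0.0321). Positive S3 cells made up 29.8%, 24.9%, 54.5% and 67.7%, and strongly positive S3 cells numbered 41, 28, 221 and 243. After thinning each cell to 2000 UMIs the S3 shares were 6.98%, 6.48%, 21.8% and 24.2%. Macrophages, with 4.8%, 3.54%, 10.5% and 10.7% after the same thinning, moved with the groups too, at levels of 36.8, 38.2, 67.2 and 79.3. Whether these were transcripts of the macrophages or stray ones was not tested. The adjusted p of the S3 result was 0.191 without DMSO 1, 0.226 without DMSO 2 and 0.169 with predicted doublets kept.

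Wfdc2 (chromosome 2, 164562413 to 164568510) was low in the proximal tubule, at 1.71, 1.84, 7.02 and 10.7 CPM. The log2 fold change was -2.22 (SE 0.24, edgeR adjusted p = 0.106). Strongly positive cells numbered 1, 3, 18 and 26 and made up 50.6% of the difference. The other cells held 1.6, 1.39, 4.08 and 5.9 CPM and did not overlap between the groups. Among the tests on UMI sums it was called in S3, where levels were 2.73, 4.12, 12.1 and 13 and Wfdc2 was lower under BPTES by a log2 fold change of -1.81 (SE 0.21, edgeR adjusted p = 0.0103). It remained past the threshold without any one library, and missed it with predicted doublets kept (-1.54, adjusted p = 0.0887). T cells held 1.85, 0.569, 2.8 and 2.73 Wfdc2 CPM, so that the DMSO values in S3 exceeded this background and the BPTES values lay nearer to it.

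Clu (chromosome 14, 65968483 to 65981547) and Lcn2 (chromosome 2, 32384633 to 32388252) were scarce in the proximal tubule, and in S1-S2 their levels were near those of T cells. Over the whole proximal tubule Clu stood at 2.08, 4.27, 5.97 and 9.9 CPM, with 2, 2, 10 and 25 strongly positive cells, and Lcn2 at 0.145, 0.25, 0.606 and 0.925 CPM, with 0, 1, 1 and 0. Neither was called there. Clu measured 1.23, 1.01, 2.44 and 3.1 CPM in S1-S2, where it was called lower under BPTES (-1.24 on the log2 scale with an SE of 0.23, edgeR adjusted p = 0.0428). T cells held 1.33, 1.04, 1.27 and 3.59 Clu CPM, above the S1-S2 level of the same library in all but DMSO 1. Without DMSO 2 the adjusted p was 0.0688, with predicted doublets kept it was 0.147 and without the Fgg sub-cluster 0.0616. Lcn2 measured 0.178, 0.176, 0.792 and 0.602 in S1-S2, where it was called lower too (log2 fold change -1.90, SE 0.37, edgeR adjusted p = 0.047). T cells held 0.41, 0.0949, 0.254 and 0.937 Lcn2 CPM, a range that covers the S1-S2 values. The Lcn2 adjusted p was 0.0902 without BPTES 2, 0.101 without DMSO 1 and 0.195 with predicted doublets kept.

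Cd44 (chromosome 2, 102811141 to 102901665) showed no difference that passed the test in any segment. Its proximal tubule levels were 12.5, 14.4, 13.4 and 16.1 CPM, positive cells made up 22%, 21.3%, 19.7% and 22.2%, and the log2 fold change was -0.03 (SE 0.15, edgeR adjusted p = 0.918). T cells held between 276 and 342 and macrophages between 122 and 157, far above the tubule. Proximal tubule cells with at least 10 Cd44 UMIs numbered 0, 1, 4 and 12.

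**Figure D2:**
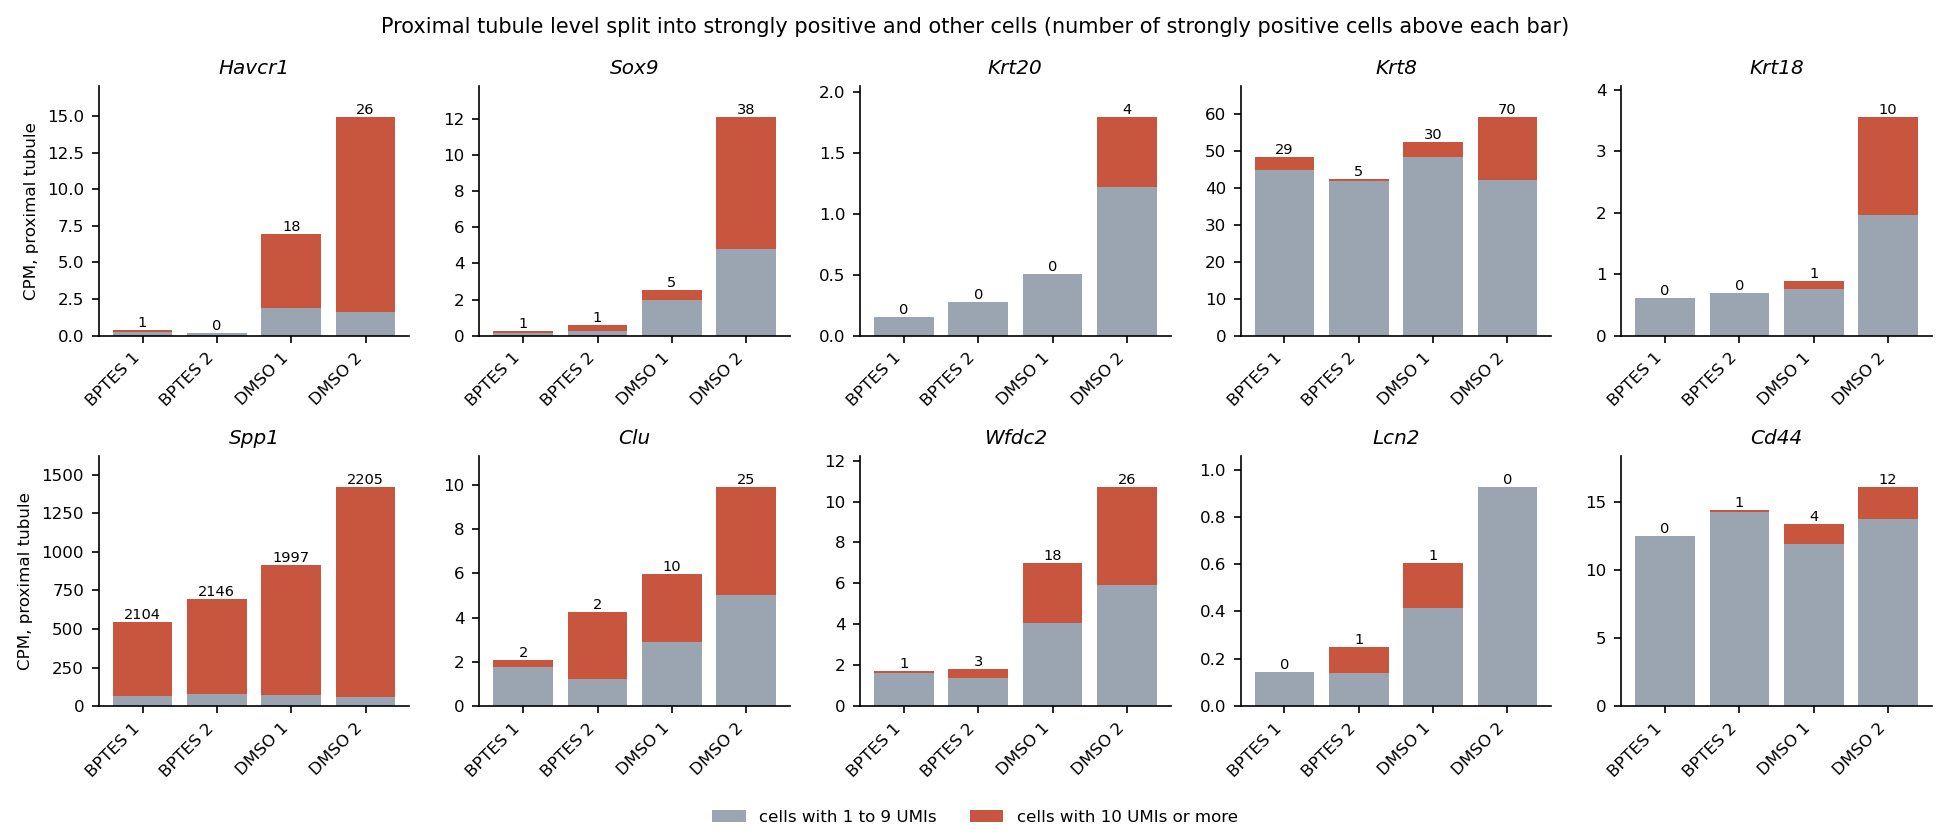
Proximal tubule level of each gene in CPM (bars start at 0), split into cells with 10 UMIs or more (red) and cells with 1 to 9 UMIs (grey), with the number of strongly positive cells above each bar. Red makes up most of the Havcr1 bars in DMSO, grey most of the Lcn2 bars, and Krt8 has grey bars of like height in all 4 libraries.

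The share of cells passing a rising number of UMIs gives the same distinction without a single limit. For Havcr1, the share of proximal tubule cells with at least 5 UMIs was 0.0525%, 0%, 0.518% and 0.733%, and with at least 50 UMIs the numbers of cells were 0, 0, 3 and 8. For Sox9, the shares with at least 5 UMIs were 0.035%, 0.0557%, 0.339% and 1.43%. For Spp1 the shares with at least 5 UMIs were 49.7%, 55.2%, 48.7% and 57.3%, with overlapping groups, whereas those with at least 100 UMIs were 0.63%, 0.594%, 2.66% and 4.93%. Havcr1 separated the groups at each of the 7 limits from 1 to 100 UMIs, Sox9 up to 10 UMIs, and Spp1 from 20 UMIs upwards.

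**Figure D3:**
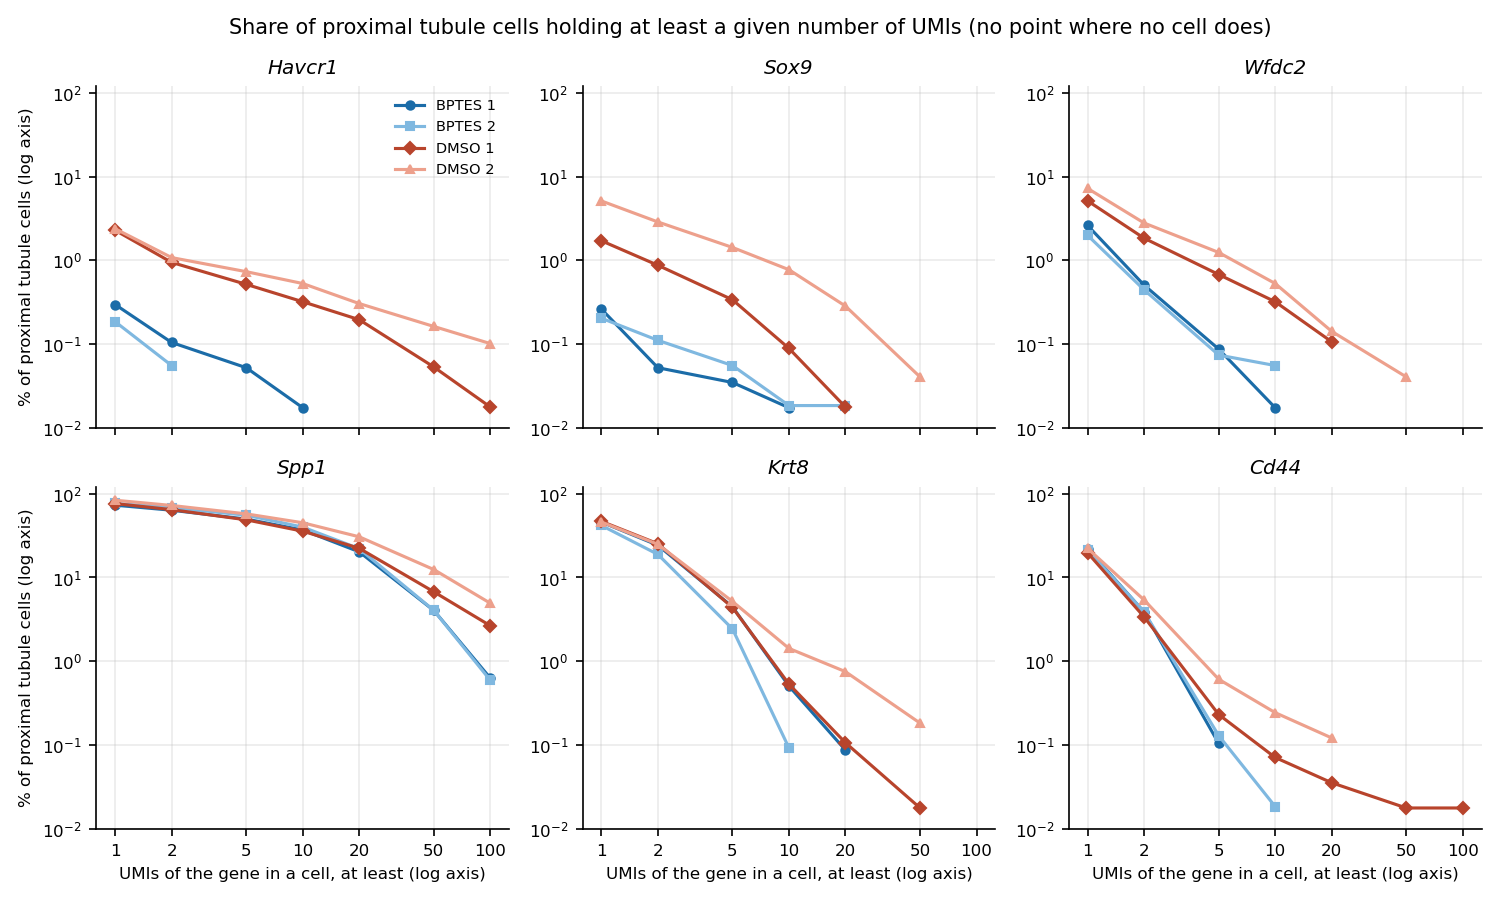
Share of proximal tubule cells (percent, log axis) that hold at least the number of UMIs on the x axis (log axis) for 6 genes, with 1 line per library. The BPTES lines of Havcr1 run below the DMSO lines at each limit and those of Sox9 up to 10 UMIs, the Spp1 lines part at high UMI numbers, and the Krt8 and Cd44 lines start together.

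A test on the number of positive cells, after each cell was thinned to 2000 UMIs, placed 4 of the 7 members it could test in the proximal tubule past the threshold, lower under BPTES, and 2.53% of all genes were called lower. They were Wfdc2 (log2 fold change -2.31, SE 0.31, edgeR adjusted p = 7.48e-05), Havcr1 (-3.46, SE 0.53, adjusted p = 0.000316), Sox9 (-4.16, SE 0.84, adjusted p = 0.0313) and Clu (-1.23, SE 0.35, adjusted p = 0.047). Havcr1 and Sox9 reached the low-count limit in the DMSO libraries alone, so their calls are descriptions, and Wfdc2 and Clu are the calls of members tested in both groups. The thinned shares behind Havcr1 were 0.0549%, 0.0387%, 0.608% and 0.47%, which is 3, 2, 32 and 22 cells, and those of Sox9 come from 0, 4, 20 and 50 cells. Those behind Wfdc2 were 0.256%, 0.252%, 1.16% and 1.39%. T cells after the same thinning held Clu in 0.247%, 0%, 0.406% and 0.391%, below the Clu shares of the proximal tubule in each library (0.457%, 0.232%, 0.665% and 0.984%), and Havcr1 in none of the cells. Without single libraries the log2 fold change ran from -2.44 to -2.18 for Wfdc2 and from -1.81 to -0.84 for Clu. The Clu call did not hold without BPTES 2, without DMSO 2 or at 4000 UMIs. Thinned to 1000 UMIs, the Wfdc2 call was lost as well (-1.18, adjusted p = 0.102). Krt8, Spp1 and Cd44 were not called. Over all tubule cells, 2 of 9 members were called, Havcr1 and Sox9, against 1.22% of all genes called lower, and both reached the low-count limit in the DMSO libraries alone. In the distal convoluted or connecting tubule 0 of 6 were called, against 3.47%.

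Many of the strongly positive cells fell into 1 cluster. A cluster of 168 proximal tubule cells led by Kcnip4, Cp, Ptgds, Cdh6, C3 and Dcdc2a, called the Dcdc2a cluster here, held 47.3% of all Havcr1 UMIs of the series, 40.4% of the Krt20 UMIs and 36.8% of the Sox9 UMIs. These pooled shares lean on DMSO 2. Without the cluster, proximal tubule Krt20 UMIs fell from 58 to 44 in DMSO 1 and from 196 to 35 in DMSO 2. Those of Sox9 fell from 290 to 200 and from 1324 to 474. The Dcdc2a cluster comprised 8, 6, 40 and 114 cells. Havcr1 measured 0, 0, 243 and 249 CPM within it, from 0, 0, 356 and 1530 UMIs. Sox9 measured 26.8, 187, 61.4 and 138, and Spp1 1079, 11987, 6431 and 8259, so that of these genes Havcr1 separated the groups, with 8 and 6 BPTES cells behind the comparison. A further unnamed cluster of 266 cells, led by C3, Fgg, Fgb and Fga, comprised 28, 18, 120 and 100 cells and held Havcr1 at 3.89, 10.4, 142 and 31.6.

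Across the tubule and these clusters there were 58 strongly positive Havcr1 cells, 1, 0, 24 and 33 per library, with a median depth of 48630 UMIs. Of these, 32 lay in the Dcdc2a cluster, 6 in that led by C3 and Fgg, 3 in a cycling cluster, 13 in other proximal tubule clusters and 4 in distal segments. As many as 57 of the 58 were also strongly positive for Spp1, 28 for Krt8, 19 for Sox9, 15 for Wfdc2, 12 for Clu, 10 for Krt18, 9 for Cd44, 5 for Krt20 and 3 for Lcn2. In addition 31 were strongly positive for Vcam1, an adhesion molecule of injured tubules. In the same set 10324 cells were strongly positive for Spp1, 285 for Krt8 and 60 for Sox9. The overlap was uneven between the DMSO libraries. Of the 18 strong Havcr1 cells of the proximal tubule in DMSO 1, 33.3% held Sox9, 27.8% Clu, 11.1% Krt18 and 44.4% Vcam1. Of the 26 in DMSO 2, 96.2%, 88.5%, 65.4% and 96.2% did. Their median depth was 28715 and 78180 UMIs, and the part of depth was not tested. Lcn2 marked other cells: of 181 strongly positive Lcn2 cells (18, 8, 45 and 110), 177 lay in distal segments.

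**Figure D4:**
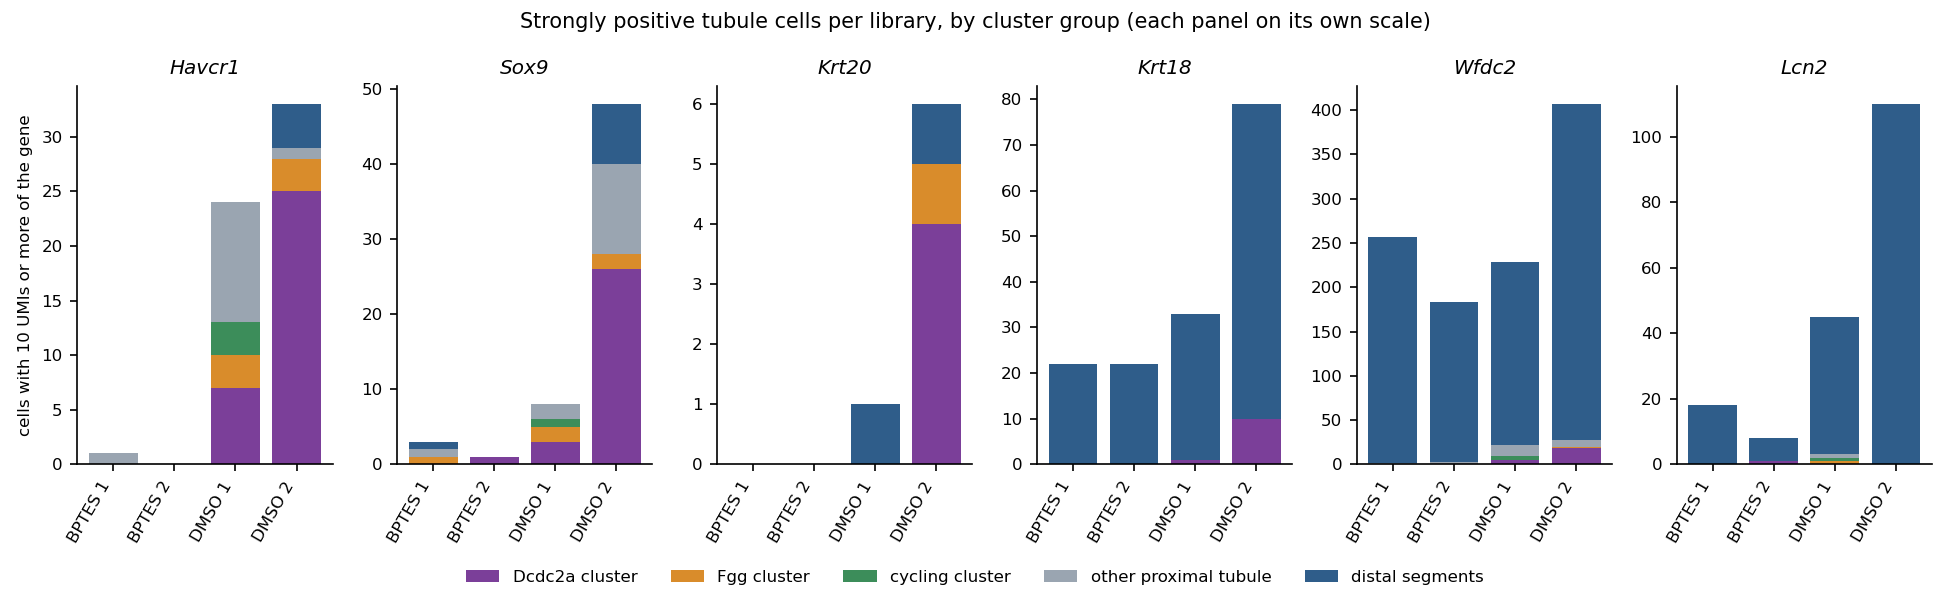
Number of tubule cells with 10 UMIs or more of each of 6 genes, per library, coloured by the cluster group they lie in. Strong Havcr1, Sox9 and Krt20 cells are mostly in DMSO libraries, the Dcdc2a cluster holds 7 of 24 strong Havcr1 cells in DMSO 1 and 25 of 33 in DMSO 2, and strong Lcn2 cells lie in distal segments.

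Leaving the Dcdc2a cluster out of the proximal tubule shows how much of each result sits outside it. Havcr1 then had a log2 fold change of -3.04 (SE 0.86, edgeR adjusted p = 0.195), and the strongly positive share of its difference fell to 49.0%. Sox9 had -3.83 and Spp1 -0.51. Krt18 stood at 0.039 and Cd44 at 0.19, both no longer negative. In this smaller set Wfdc2 (-1.71, adjusted p = 0.0126), Lcn2 (-2.21, adjusted p = 0.0364) and Clu (-1.20, adjusted p = 0.0424) were called lower, against 0.388% of all genes. When the Fgg and cycling clusters were added to the proximal tubule instead, Havcr1 (-5.29, adjusted p = 0.0416) and Wfdc2 (-2.30, adjusted p = 0.0416) were called, against 0.0487% of all genes. These cell sets were chosen after the data had been seen.

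Within the segments, the calls read against the background as follows. In S1-S2, Spp1, Clu and Lcn2 were lower, beside Sox9, whose BPTES libraries lay under the low-count limit, and 0.814% of all 14985 genes were. Havcr1 measured 0.314, 0.106, 2.82 and 0.58 TMM-scaled CPM there and was not called (-3.01, SE 1.05, edgeR adjusted p = 0.299). Without the Fgg sub-cluster it measured 0.12, 0.061, 1.1 and 0.484, from 8, 4, 53 and 21 UMIs, and was called (-3.10, SE 0.55, edgeR adjusted p = 0.0424), in cells chosen after the data had been seen and with the BPTES libraries under the low-count limit. In S3, Wfdc2 and Spp1, 2 of 8 members, were lower, and 0.943% of all 13885 genes were. Havcr1 in S3 measured 0.787, 0.434, 10.4 and 1.86 CPM and was not called. Summed macrophage markers also moved with treatment in S1-S2, at 14.9, 12.4, 25.4 and 30.1 CPM, with all 7 markers present in each library, and in S3 at 13.9, 11.7, 23.9 and 26.7. Plasma cell markers moved the other way, at 24.1, 40.3, 7.27 and 7.5 in S1-S2. The part of these markers in the results was not tested.

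**Figure D5:**
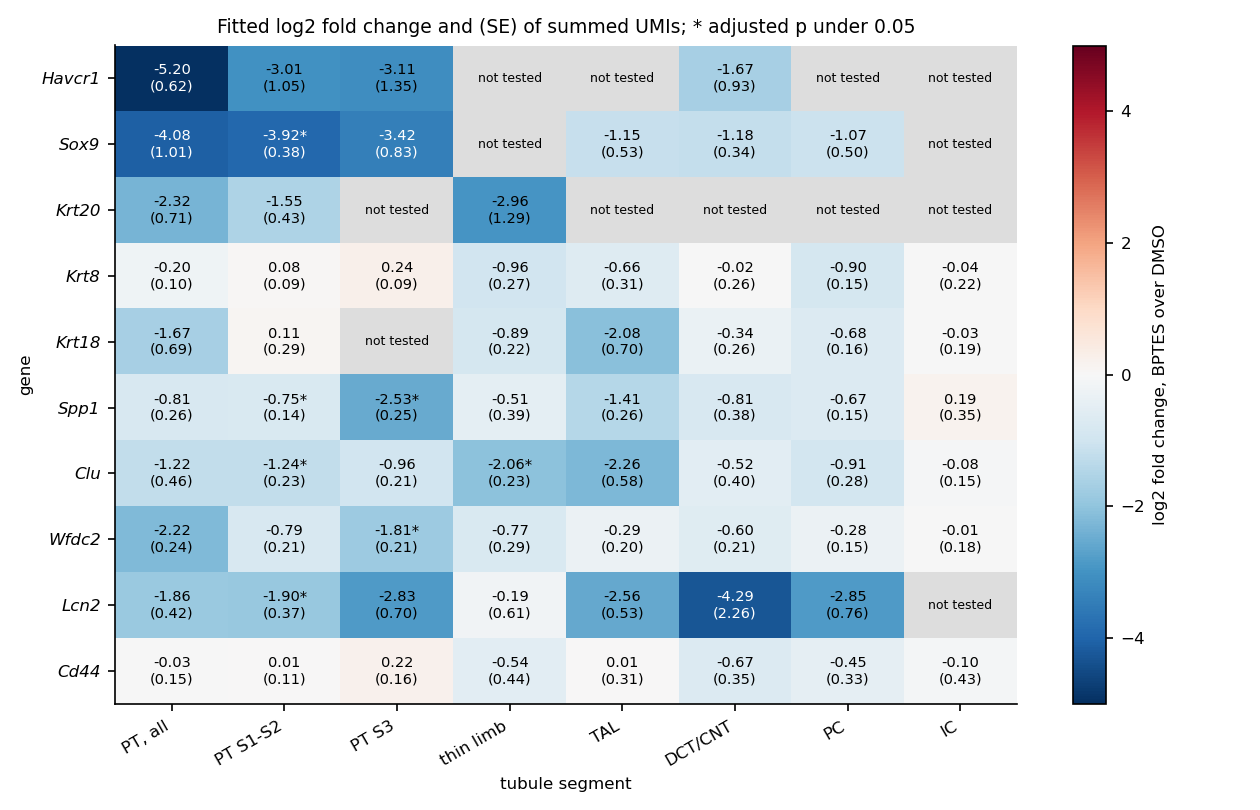
Fitted log2 fold change (BPTES over DMSO) with its SE in parentheses, by gene and segment, coloured from blue (lower under BPTES) to red, where * marks an adjusted p under 0.05 and grey fields were not tested. Stars stand in PT S1-S2 for Sox9, Spp1, Clu and Lcn2, in PT S3 for Spp1 and Wfdc2, and in the thin limb for Clu.

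In the distal segments most members were more abundant, and most differences were below 0 without reaching the threshold. The exceptions in sign were Spp1 in intercalated cells (log2 fold change 0.19) and Cd44 in the thick ascending limb (0.0060). In the thin limb class, Clu measured 49.9, 37.4, 175 and 196 CPM and was called lower under BPTES (log2 fold change -2.06, SE 0.23, edgeR adjusted p = 0.0453), 1 of 8 members against 0.0384% of all genes. It rests on 60, 29, 63 and 95 cells and was lost when BPTES 1 (adjusted p = 0.173), BPTES 2 (0.326) or DMSO 2 (0.217) was left out, with the replicate number as a block (0.446), with predicted doublets kept (0.206) and with a 25% mitochondrial limit (0.054). Lcn2 there measured 549, 891, 1245 and 393, with overlapping groups.

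The thick ascending limb joins 2 clusters in unequal parts, cluster 17 with 216, 160, 209 and 190 cells and cluster 32 with 71, 41, 52 and 121. It expressed Wfdc2 (1368, 1353, 1672 and 2030 CPM) and Spp1 (3839, 2963, 7898 and 12357) at high levels. Spp1 came closest to a call, with a log2 fold change of -1.41 (SE 0.26, edgeR adjusted p = 0.0541), which ran from -1.64 to -1.13 without single libraries. Its median cell held 16.8, 16.1, 33.5 and 44.4 UMIs per 10000, so both DMSO libraries were higher in the typical cell of this segment. Lcn2 measured 87.2, 34.7, 298 and 524, Clu 176, 180, 482 and 1451, and Krt18 8.07, 13.7, 23.7 and 74.4, with no overlap between groups and no call. On TMM-scaled CPM, 6 of 8 members and 18% of the 10700 genes had both BPTES libraries below both DMSO libraries. Within the clusters Clu overlapped between groups, at 208, 54.6, 897 and 107 TMM-scaled CPM in cluster 17 and 155, 305, 147 and 1792 in cluster 32, and Krt18 overlapped in cluster 17 (5, 11.2, 22.1 and 11.1). Lcn2, Spp1 and Wfdc2 had both BPTES libraries below both DMSO libraries in both clusters. So had 17.1% of all genes in cluster 17 and 19% in cluster 32. No member was called in either. Strongly positive Lcn2 cells numbered 4, 1, 16 and 46. Havcr1 was found only in DMSO 2, at 22.1 CPM with 2 strongly positive cells, while the 0 counts of the other 3 libraries allow up to 1.21, 1.79 and 1.34. No member was called here, and 0.0654% of all genes were lower.

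The distal convoluted or connecting tubule joins 2 clusters in unequal parts: cluster 13, the shallower, with 312, 264, 163 and 209 cells, and cluster 31 with 54, 42, 56 and 175. In the joined class 0 of 9 members were called, against 0.0861% of all genes. Lcn2 measured 53.6, 15.2, 66.2 and 1438 CPM, and 1 DMSO 2 cell held 1914 of its UMIs, so that 1 library set this difference. Strongly positive Lcn2 cells numbered 2, 1, 4 and 26. Wfdc2 measured 909, 945, 1427 and 1629 and its groups did not overlap (log2 fold change -0.60 with an SE of 0.21, edgeR adjusted p = 0.22), and Sox9 measured 9.12, 9.93, 15.6 and 29.3 (-1.18, SE 0.34, adjusted p = 0.159). On TMM-scaled CPM, 4 of 9 members and 24% of the 10455 genes had both BPTES libraries below both DMSO libraries. On cluster 13 alone, Wfdc2 (-0.52, SE 0.09, edgeR adjusted p = 0.0121) was called, against 0.128% of all genes. Lcn2 passed the threshold there too, from 1, 1, 75 and 50 UMIs or 0.75, 1.03, 122 and 62.1 CPM, but it reached the low-count limit in the DMSO libraries alone, and no fold is given on 1 UMI per BPTES library. Clu and Cd44 had the opposite sign on this cluster, with no call: Clu stood at 2489, 2304, 2090 and 1902 TMM-scaled CPM (0.27, SE 0.09, adjusted p = 0.402) and Cd44 at a log2 fold change of 0.45 (SE 0.37). No member was called on cluster 31 alone.

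Principal cells carried the highest Clu levels, 1966, 3444, 5116 and 5364 CPM, and they held 49.9% of all Clu UMIs. Krt8 there measured 107, 134, 238 and 223 (log2 fold change -0.90, SE 0.15, edgeR adjusted p = 0.078), Krt18 149, 184, 298 and 247 (-0.68, SE 0.16, adjusted p = 0.155), and Spp1 2375, 2839, 4303 and 4213 (-0.67, SE 0.15, adjusted p = 0.14). Lcn2 measured 64.6, 15.3, 347 and 246, and the share of positive cells was 19.8%, 17.9%, 26.7% and 63.4%. All of these separated the groups. On TMM-scaled CPM, 7 of 8 members and 22.8% of the 11307 genes had both BPTES libraries below both DMSO libraries. In the test 0 of 8 members passed the threshold, against 0.0177% of all genes. In intercalated cells Krt8, at 53.3, 77.2, 82.4 and 63.6, and Spp1, at 2317, 2309, 1462 and 2987, overlapped between groups, and 0 of 6 members were called, against 0.0196%. On TMM-scaled CPM, 0 of 6 members and 21% of all genes had both BPTES libraries below both DMSO libraries there. Whether principal and intercalated cells differ in this was not tested. Over all tubule cells together, 0 of 10 members and 0 of 17413 genes (0%) were called.

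Whether the treatment effect differed between the proximal tubule and the distal segments was tested as an interaction, and 0 of 10 members passed, against 0.0114% of 17611 genes. Wfdc2 came closest, with a difference of proximal minus distal log2 fold change of -1.85 (SE 0.19, edgeR adjusted p = 0.0654). For the other members the adjusted p was at least 0.227, which does not show that the effect was alike.

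Among the tubule segments, the members had their highest levels in different places. The class named thin limb also carried urothelial genes, and their part in its ranks was not tested. Wfdc2 ran from the thick ascending limb (1353 to 2030 CPM over the 4 libraries) and principal cells (1161 to 1638) over the distal convoluted or connecting tubule (909 to 1629), 3 overlapping ranges, to the thin limb (249 to 600), intercalated cells (121 to 169), S3 and S1-S2. Clu ran from principal cells and the distal convoluted or connecting tubule (1531 to 3694), which overlap, over intercalated cells (306 to 421) and the thick ascending limb (176 to 1451), which overlap too, to the thin limb (37.4 to 196), which overlaps the thick ascending limb, and the proximal tubule. Krt18 was highest in the thin limb (179 to 397) and principal cells (149 to 298), which overlap, and lowest in S3 (0.0843 to 0.446). Spp1 was highest in the thick ascending limb (2963 to 12357) in both DMSO libraries, and in the class named thin limb in both BPTES libraries. The thick ascending limb range overlapped those of all other distal segments, and S1-S2 (901 to 1748) lay above S3 (61.3 to 493). Krt8 was highest in the thin limb (91.8 to 257) and principal cells (107 to 238), which overlap, and Sox9 in the distal convoluted or connecting tubule (9.12 to 29.3) and the thin limb (0 to 18.7), which overlap too.

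Lcn2 was highest among tubule segments in the class named thin limb (393 to 1245 CPM) in BPTES 1, BPTES 2 and DMSO 1. In DMSO 2 alone the distal convoluted or connecting tubule (15.2 to 1438) was highest. In each other library it lay below the thick ascending limb and principal cells. Neutrophils held 30.7% of the Lcn2 UMIs summed over all libraries. Tubule cells held 1436, 679, 3087 and 11259 Lcn2 UMIs, so this pooled share leans on DMSO 2. Krt20 was counted in the class named thin limb (0 to 43.8) and the proximal tubule and in no other tubule segment. The class named thin limb held 7, 0, 50 and 20 Krt20 UMIs and urothelial genes at 1170, 2271, 3578 and 664 summed CPM. Which of its cells carried Krt20 was not tested. For Cd44, monocytes held 30.7% of the UMIs, and its highest tubule range was that of the distal convoluted or connecting tubule (20.5 to 50.5), which overlapped the thick ascending limb (15.2 to 32.3) and the thin limb (17.5 to 42.4). Havcr1 outside the tubule was counted in plasmacytoid dendritic cells, which held 10.4% of its UMIs, in B cells (5.16%), dendritic cells (1.65%) and plasma cells (1.13%). These shares are of UMIs summed over all libraries. Tubule cells held 50, 25, 808 and 1826 Havcr1 UMIs, so the DMSO libraries set most of the sum, and the shares under BPTES alone can differ.

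Of the 35 further injury and repair genes, all measured, 34 had a log2 fold change below 0 in the proximal tubule, with a median of -1.29 against -0.02 for all genes, and none was called. The list was chosen with earlier results of these data known. Its genes C3, Fgg, Fgb, Fga, Cp, Cdh6, Dcdc2a and Sema5a also lead clusters that hold more DMSO than BPTES cells. The counts of this list are therefore a description and no independent support. In S1-S2, 8 of 32 were lower and none was higher, against 0.814% of all genes called lower, and without the Fgg sub-cluster 7 were. Of the 8, Ccl2 reached the low-count limit in no BPTES library, which leaves 7. They included C3, a complement component, at 1.33, 1.23, 19.8 and 24.3 TMM-scaled CPM (log2 fold change -4.10, SE 0.15), the fibrinogen chains Fgg (-1.33) and Fgb (-0.86), the stress cytokine Gdf15 (-1.24) and Vcam1 (-2.70). In S3, 7 of 30 were lower, against 0.943%, among them Vcam1 (-3.61, from 0.168, 0.354, 1.94 and 3.81 TMM-scaled CPM), Fgb (-2.55), Cp, ceruloplasmin (-2.16), Dcdc2a (-1.07) and Prom1 (-1.07). In the principal cells, S100a6 was lower (-3.00), the only one called of 23, against 0.0177%. Of the ligands and receptors of the members, such as Lrp2 and the integrins, none was called in any segment.

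Of the immediate early genes, which respond to stress and to tissue dissociation, none of 19 was called over the whole proximal tubule, where 15 had a log2 fold change below 0, with a median of -0.94 against -0.02 for all genes, and 15 had an unadjusted p under 0.05. By positive cells 8 of 19 were lower there, against 2.53% of all genes. In S1-S2, 6 of 19 were lower, against 0.814%, among them Egr1 (-1.93), Ier3 (-1.39), Fos (-1.07), Zfp36 (-0.85) and Junb (-0.79). The part of this list in the injury gene results was not tested. In the thick ascending limb 4 of 18 were lower, against 0.0654%: Atf3 (-2.25), Zfp36 (-2.08), Egr1 (-1.80) and Junb (-1.38). Socs3 passed the threshold too, from 6, 3, 106 and 257 UMIs, but reached the low-count limit in the DMSO libraries alone. Of the 20 proximal tubule differentiation genes none was called in the whole proximal tubule, and 1 was higher in S3, Slc7a13 (0.58, from 858, 934, 562 and 633 TMM-scaled CPM), against 0.338% of all genes called higher. Slc7a13 is among the markers by which S3 was named. By positive cells, the glucose transporter Slc5a2 and the lactate transporter Slc5a12 were higher over the whole proximal tubule (0.41 and 0.26), against 0.646% of all genes. Both are markers by which S1-S2 was named, and the BPTES libraries held more S1-S2 cells. In the test on UMI sums within S1-S2, which is another measure, no differentiation gene was called higher. The part of the segment make-up in the Slc5a2 and Slc5a12 calls was not tested.

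Over 72 sums of 18 cell classes in 4 libraries, the genes whose log2 levels ran most alike differed between the members. These correlations describe differences between cell types, and the sums share libraries and depth. Krt8 was most like Wwc1 (r = 0.971), Wfdc2 like Tfap2b (0.973), Krt18 like Dsp (0.965), Clu like Hoxb5os (0.956), Spp1 like Serf1 (0.940), Cd44 like Lsp1 (0.937), Sox9 like Sytl4 (0.857), Krt20 like Upk2 (0.822) and Havcr1 like Il5ra (0.644). Among the members, Clu and Wfdc2 ran closest (0.901), followed by Krt18 and Wfdc2 (0.887), while Havcr1 reached at most 0.281, with Sox9.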

How the data were processed

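Single-cell RNA of 4 kidney libraries (2 BPTES, 2 DMSO) was measured with the 10x Genomics GEM-X 3' kit, per the labels' protocols. The authors deposited whole-number counts of UMIs for every gene and barcode, with Cell Ranger 8.0.1 and the genome build mm10 per the submitters' processing notes. Gene positions are from GENCODE vM21 (GRCm38), matched by Ensembl identifier.

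Barcodes with at least 500 UMIs, at least 300 genes and at most 50% mitochondrial UMIs were kept (33.1% of 76278 barcodes were over the last limit). Scrublet scores (30 components) ranked cells in each library, and the top 0.4% per 1000 barcodes, 3867 in all, were removed as doublets, because its own threshold marked 0 to 175 cells per library. Libraries shared 90 to 114 barcodes per pair, under 0.62% of the smaller. Clustering (scanpy 1.11.5, 3000 variable genes, 40 components, 15 neighbours, Leiden resolution 1) left out the 10 members and mitochondrial genes and gave 53 clusters. A cluster took the name of the marker list with the highest score among lists with at least 3 markers detected in 20% of its cells. It stayed unnamed where another type's markers led, where it was shallow with no marker leading, or where under 3 markers were detected (2937 cells in all). Proximal tubule cells were clustered again, and the sub-clusters were named S1-S2 or S3 from marker lists. Sub-clusters with neither list above the mean stayed unnamed, so 11260 and 5061 of 21610 cells lie in the 2 segments. The distal convoluted and connecting tubule lists were joined and this naming rule was chosen after the clusters had been seen, so the planned tests on each of these lists became 1 test.

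UMIs were summed per library and segment (at least 20 cells in each library) and tested with edgeR 4.0.16 (quasi-likelihood, robust, TMM, filterByExpr, Benjamini-Hochberg over all genes of the segment, threshold 0.05), with treatment as the only term. The low-count limit is 10 counts at the median library size. Positive cells were counted after thinning each cell to 2000 UMIs, leaving out shallower cells, with the number of cells as library size. A strongly positive cell holds at least 10 UMIs. On simulated sums of the proximal tubule (16323 genes) the fit recovered 99 of 100 genes changed 4-fold and 100 of 100 changed 16-fold, with 5 unchanged genes called. The simulation used a fixed dispersion of 0.05 and changed only genes with many UMIs. It does not show what the fit can detect at the spread of the real libraries, where Havcr1 at a log2 fold change of -5.20 was not called. Intervals on shares are exact (Clopper-Pearson, 95%), and the limit of a 0 count is 3 counts, both for counting error only.

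The members, gene lists, markers and alternatives were chosen with earlier results of these data known. Named genes are the 10 members and, of each further list, up to 5 genes per segment with the smallest adjusted p among those called. For likeness, the genes with the highest Pearson correlation over class sums were taken, of which the first is printed (for Lcn2 it is not reported here). Alternatives were DESeq2 1.42.0, the replicate number as a block, RLE scaling, a fit without the low-count filter, each library left out, a 25% mitochondrial limit, doublets kept, Leiden resolution 2, thinning to 1000 or 4000 UMIs and strong limits of 5 or 20 UMIs. With doublets kept and at Leiden resolution 2, the cells were clustered and named anew, so segment membership changed too. Fits without single clusters or sub-clusters, or with 2 more, were added after seeing the data.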

Additional observations from a re-analysis of the deposited data

How the results depend on the processing

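Counts here are of members called at an adjusted p under 0.05, and a left-out library leaves 1 sample in its arm, which is assumed to vary like the others. DESeq2 called 4 members and 546 genes over all tubule cells, 5 and 970 in the proximal tubule, 1 and 76 in the distal convoluted or connecting tubule, 2 and 71 in principal cells and 1 and 26 in the thick ascending limb, where edgeR called 0 members. Without the low-count filter the counts, beside the share of all genes called in the same fit, were 1 in the proximal tubule (0.846%), 4 in S3 (4.82%), 6 in the thin limb (1.27%), 4 in the thick ascending limb (1.17%), 2 in the distal convoluted or connecting tubule (2.95%) and 4 in principal cells (3.41%). With predicted doublets kept and the cells clustered and named anew, the counts were 0 in S1-S2, S3 and the thin limb and 1 in the thick ascending limb. The log2 fold change of Krt8 in S3 then was -0.12 and that of Cd44 in the proximal tubule 0.043. At Leiden resolution 2 the counts were 1 in S1-S2, 4 in S3 and 1 in the thick ascending limb. The 1 in S1-S2 was Sox9, whose BPTES libraries lay under the low-count limit in the main S1-S2 fit. Over the alternatives other than a left-out library, all genes called ran from 12 to 1029 in S1-S2 and from 151 to 1373 in S3. The member counts at resolution 2 are therefore not read as a result about the members. With a 25% mitochondrial limit the counts were 1 in the proximal tubule and 0 in the thin limb. Cluster 13 of the distal convoluted or connecting tubule gave 2, of which Lcn2 rests on 1 UMI in each BPTES library. In the proximal tubule, 3 members were called without the Dcdc2a cluster and 2 with the Fgg and cycling clusters, and in S1-S2 without its Fgg sub-cluster 3 were, of which Sox9 and Havcr1 lay under the low-count limit in both BPTES libraries. Without the Dcdc2a cluster Krt18 stood at 0.039 and Cd44 at 0.19. RLE scaling changed no count of members. Counts of all genes called moved by more than 1.5 times under most alternatives, for example in the proximal tubule from 0 to 970 by DESeq2, 202 without the filter and 41 with the 25% limit. In S1-S2 they moved from 168 to 421, 829 and, with doublets kept, 12. The causes were not tested.

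Each fit without 1 library leaves 1 sample in a group, so its member count is not read as a result about the members. Over these fits the log2 fold change in the proximal tubule ran from -6.00 to -4.52 for Havcr1 and from -2.51 to -1.86 for Wfdc2. It ran from -3.38 to -2.08 for Lcn2 in the thick ascending limb and from -0.67 to -0.51 for Wfdc2 in the distal convoluted or connecting tubule. In these 3 segments, both the members called and the number of all genes called changed with the library left out. By positive cells in the proximal tubule, the log2 fold change of Wfdc2 ran from -2.44 to -2.18 without single libraries. The difference between its proximal and distal log2 fold changes ran from -2.09 to -1.61. The log2 fold change of Cd44 in the proximal tubule ran from -0.20 to 0.15. In the test on positive cells, thinning to 1000 UMIs gave 2 members called in the proximal tubule, and thinning to 4000 UMIs gave 1 over all tubule cells.

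The part of the proximal tubule difference held by strongly positive cells depended on the limit. For Havcr1 it was 75.6% with at least 20 UMIs and 49.0% without the Dcdc2a cluster, and it ran from 74.5% to 90.1% without single libraries. For Krt20 it was 67.0% with at least 5 UMIs, 0% with at least 20 UMIs and 0% without the Dcdc2a cluster, and 0% to 36.6% without single libraries. For Wfdc2 it was 71.3% with at least 5 UMIs, 28.4% with at least 20 UMIs and 39.7% without the Dcdc2a cluster, and 48.7% to 52.5% without single libraries. For Spp1 it was 106% with at least 20 UMIs and 99.6% to 103% without single libraries. For Krt8 it was 25.4% without the Dcdc2a cluster. For Sox9 it ran from 29.8% to 73.3% over the limits of 5 and 20 UMIs and without the Dcdc2a cluster. It was 30.1% without that cluster. Without single libraries it ran from 16.9% to 61.0% for Sox9 and from -7.55% to 33.9% for Lcn2.

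The labels number the samples, and with the number as a block the counts were 6 members in the proximal tubule, 6 in S3, 0 in the thin limb, 4 in the thick ascending limb and 2 in the distal convoluted or connecting tubule. All genes called under the block numbered 808 in the proximal tubule, 1029 in S1-S2 and 1373 in S3. Over all alternatives other than a left-out library, the genes called ran from 9 to 305 in the thick ascending limb. In the distal convoluted or connecting tubule they ran from 7 to 822. The member counts under the block are not read as a result about the members. Deviations of same-numbered samples from their group means correlated between -0.24 in the thin limb and 0.17 in the distal convoluted or connecting tubule. With 2 pairs in a comparison, and labels that do not say what the number marks, this does not settle whether same-numbered samples are paired.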
